A study of Homo sapiens with 6 samples.

Results

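The genes described here encode the subunits of the proteasome and the chaperones that assemble it. They are all rows of the gene table whose symbol begins with PSM, then one letter from A to G, then a number, together with POMP, and they come to 48 of 17579 genes. By role they fall into 8 genes of the 20S alpha ring, 7 of the standard beta ring, 3 inducible immunoproteasome subunits, 6 ATPases and 11 other subunits of the 19S cap, 3 chaperones of the 19S base, 5 activators or inhibitors and 5 chaperones of the 20S core. PSMB11, the thymus-specific beta subunit, was not analysed here. RNA-seq libraries were made from LP-1, an established multiple myeloma cell line, and the series addresses Aurora kinase A, the histone methyltransferase NSD2 and drug resistance in that disease. In the first group (3 libraries) the cells had been infected with a virus carrying a guide RNA against AURKA, a genotype the labels call a knockout, and in the second (3 libraries) with a virus carrying a guide that has no target. Both were grown with 10% FBS. The labels give neither the virus, the nuclease, the time after infection nor whether cells were cloned or pooled. They do not say that replicates came from separate cultures, so each p-value here reflects how far these libraries vary, which may be technical variation alone.

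The proteasome is the barrel-shaped protease that degrades ubiquitin-tagged proteins. Its 20S core stacks rings of alpha subunits, which gate the entrance, around rings of beta subunits, some of which cut peptide bonds, and the 19S cap recognises, unfolds and feeds in the substrate. Myeloma cells make large amounts of antibody, discard many misfolded chains and are treated with proteasome inhibitors such as bortezomib. Interferon replaces the cutting beta subunits by inducible ones, forming the immunoproteasome. The transcription factor NFE2L1 binds antioxidant response elements and drives many proteasome genes together when the proteasome is impaired.

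Total expected counts ran from 18287684 to 18383855 in the AURKA-guide libraries and from 17724174 to 18523594 in the controls, and the members took 0.678 to 0.709% of them with the AURKA guide and 0.684 to 0.691% in the controls. AURKA itself had 113, 119 and 113 CPM (the counts scaled to TMM-adjusted library size) in the AURKA-guide libraries, against 189, 192 and 195 CPM in the controls, a log2 fold change of -0.74 (SE 0.0488, adjusted p = 1.55e-06 by edgeR's quasi-likelihood test), and NSD2 was at -0.024 (adjusted p = 0.822). In bulk RNA, fewer cells with a change and a smaller change in every cell cannot be told apart. Of 8 plasma cell markers all 8 were expressed, with 1792 to 1830 FPKM in sum in the AURKA-guide libraries and 1850 to 1943 FPKM in the controls, and 1 of them, CD38, rose (0.38, adjusted p = 0.000416). The cells are labelled as B lymphoblasts, yet the B cell marker MS4A1 was at 0 in every library and PAX5 reached 0.01 FPKM in 1 AURKA-guide library alone. Marker lists summed to at most 0.53 FPKM for T and NK cells, 0.77 FPKM for erythroid, 3.30 FPKM for stromal and 3.55 FPKM for myeloid cells. The AURKA-guide libraries were more alike than the controls, with a chi-square per gene of 2.24 to 2.66 between pairs. Among the controls it was 2.96 for replicates 1 and 2, 5.22 for replicates 1 and 3 and 10.5 for replicates 2 and 3. A library's deviation from the mean library was correlated with GC content across genes. The correlation was 0.227, 0.48 and -0.263 in control replicates 1, 2 and 3. It was 0.039, -0.223 and -0.321 in AURKA-guide replicates 1, 2 and 3.

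Stretches of members' promoters that hold a known regulatory motif are shown because the fold changes of these genes can be set beside them. They come from RefSeq on GRCh38.p14, whereas the authors' counts rest on hg19. Of the 48 members 42 had an entry, and the 250 bases before each gene's start were searched on both strands; PSMA7, PSMB1, PSMB6, PSMB7, PSMD4 and PSMG3 had none. The core of the antioxidant response element (TGACNNNGC) was found in 13 of the 42 members (31.0%) and in 13.2% of 27305 genes. The other holders were PSMB9, PSMC5, PSMD5, PSMD9, PSMD12, PSME1, PSME2, PSMG1 and PSMG2. These 4 holders are the ones that passed the group test below when control replicate 3 was left out. They are given with the core in capitals and 10 bases on each side:
PSMA4, chr15:78540650-78540678, plus strand: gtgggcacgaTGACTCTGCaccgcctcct
PSMB3, chr17:38752627-38752655, plus strand: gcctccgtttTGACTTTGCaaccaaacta
PSMD3, chr17:39980760-39980788, plus strand: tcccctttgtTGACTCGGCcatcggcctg
PSME4, chr2:53971009-53971037, plus strand, opposite to the gene: gctctgctggTGACGCTGCagccgccggg

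The core of the interferon-stimulated response element (GAAA, any 2 bases, GAAA) was found in 5 of the 42 members (11.9%) and in 3.71% of all genes. The holders were PSMA4, PSMB4, PSMB10, PSME2 and PSMG4. PSMB10 and PSME2, both known to be induced by interferon, carry the same 10 letters, in capitals here:
PSMB10, chr16:67936852-67936881, minus strand: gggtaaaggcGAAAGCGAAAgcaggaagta
PSME2, chr14:24146619-24146648, minus strand: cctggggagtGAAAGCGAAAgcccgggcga
The gamma-activated sequence (TTCNNNGAA), an element of interferon-inducible promoters, was found in 7 members (16.7%) and in 8.09% of all genes. The holders were PSMA2, PSMA8, PSMB5, PSMB8, PSMC4, PSMD3 and PSME3. PSMB9 and PSME1 held neither this sequence nor the interferon-stimulated core. The match in PSMB8 is shown:
PSMB8, chr6:32844094-32844122, minus strand: aactgtccttTTCTCGGAAaaggcagggg
The core bound by ETS factors (CGGAAG) was found in 24 members (57.1%) and in 19.4% of all genes, and the CCAAT box in 18 members (42.9%) and in 37.0%. The 24 holders of the ETS core include PSMD8, with the lowest log2 fold change of the members (-0.12). They also include PSMC6 (0.17) and PSMC1 (0.13), with the smallest p-values. These genes were picked by their values in these data, and a link between the core and the fold change was not tested. PSMC6 and PSMC1 are shown:
PSMC6, chr14:52707084-52707109, plus strand: cggggccaacCGGAAGgggagggctc
PSMC1, chr14:90256519-90256544, minus strand, opposite to the gene: ccgccagaggCGGAAGtcgttaggga
Matches of different motifs overlapped in 1 member, PSMA8.

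Proteasome genes differed little between the groups. None of the 47 tested members passed an adjusted p of 0.05 (edgeR quasi-likelihood test, Benjamini-Hochberg adjustment over 13138 genes), while 2.03% of all tested genes did, 0.959% higher and 1.07% lower with the AURKA guide. Without adjustment 2 of the 47 members, PSMC6 and PSMC1, had a p under 0.05, against 16.1% of all genes, and the DESeq2 Wald test also called none, beside 1.55% of all genes. Fold changes of the members ran from -0.12 for PSMD8 to 0.17 for PSMC6 on the log2 scale, with 20 above 0 and 27 below. The median was -0.0097, against -0.0001 over all tested genes, and the median absolute log2 fold change was 0.052, against 0.089 over all genes.

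The median log2 fold change was 0.073 for the 19S assembly chaperones, 0.040 for the alpha ring, 0.027 for the 19S ATPases, 0.012 for the standard beta ring and 0.0032 for the other 19S subunits. It was -0.026 for the immunoproteasome subunits, -0.033 for the activators and inhibitor and -0.050 for the 20S assembly chaperones. The ranges of all 8 roles overlapped, and after correction for GC content the medians ran from -0.033 for the 20S assembly chaperones to 0.025 for the immunoproteasome subunits.

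The depth behind these values was 386 to 11398 expected counts per member and library. Every member's own 95% interval, from the quasi-likelihood standard error and unadjusted for the number of members, lay within a 1.3-fold change in either direction (ratios of 0.769 to 1.3). The lowest bound was 0.824, for PSMD9, and the highest 1.24, for PSMC6. The intervals rest on the spread between these libraries, which may be technical alone, so they do not bound a change between separate cultures. The share of all tested genes inside the same limits is not reported here. With any 1 library left out all 47 intervals stayed inside these limits, with bounds from 0.779 to 1.27. PSMA8, the testis form of an alpha subunit, was at 0 in all 6 libraries and was not tested.

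In most members the controls differed more among themselves than the group means did. In 42 of the 47 members (89.4%) the 3 control libraries spanned more than the difference between the group means on the log2 scale, as they did in 80.6% of all tested genes. The median span was 0.10 (log2) in the AURKA-guide libraries and 0.14 in the controls, and it was smaller with the AURKA guide in 29 of the 47 members. The groups did not overlap in CPM for 5 members (10.6%), which compares with 20.8% of all tested genes: PSMC1, PSMC6, PSMD1 and PSMD14 were higher with the AURKA guide (4 of 47, background 10.5%) and PSME3 was lower (1 of 47, background 10.2%).

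**Figure D1:**
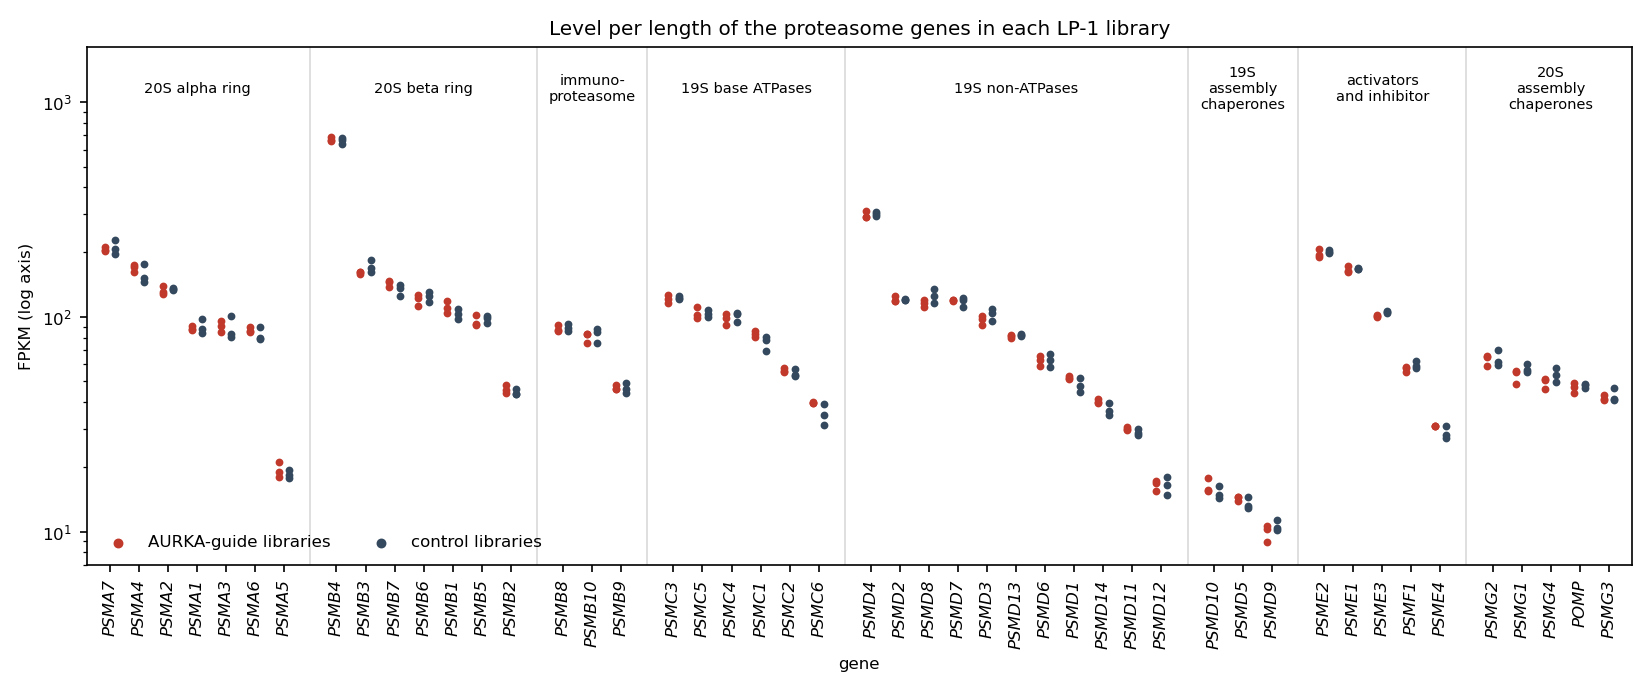
Level of each tested proteasome gene in the 6 libraries, as deposited FPKM on a log axis, with genes grouped by role and ordered by mean level within a role; red points are AURKA-guide libraries and dark points control libraries. Levels run from 10.3 FPKM for PSMD9 to 664 FPKM for PSMB4, and the points of both groups lie close together for each gene.

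Levels between genes were compared on FPKM, the deposited values per length, averaged over the 6 libraries. The alpha ring and the beta ring each contain their subunits in equal number in the assembled particle, but transcript levels were not equal. Within the alpha ring the level ran from 18.9 FPKM for PSMA5 to 208 FPKM for PSMA7, an 11-fold span, and within the beta ring from 45.3 FPKM for PSMB2 to 664 FPKM for PSMB4, a 14.7-fold span. Part of these spans is the length the authors divided by: 1 FPKM stood for 70.6 expected counts of PSMA5 and 18.5 of PSMA7. It stood for 87.1 expected counts of PSMB2 and 16.6 of PSMB4. In CPM, which is not divided by length, PSMA5 averaged 73.0 and PSMA7 211 over the 6 libraries. PSMB2 averaged 216 CPM and PSMB4 601 CPM. All members together summed to 4731 ± 125 FPKM in the AURKA-guide libraries and 4735 ± 29.8 FPKM in the controls (SD, n = 3 each).

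The 20S alpha ring summed to 792 ± 26.7 FPKM with the AURKA guide and 781 ± 28.2 FPKM in the controls (SD, n = 3 each), and none of its 7 tested genes passed the test. Of these, 4 had a log2 fold change above 0 and 3 below, with a median of 0.040. PSMA4, whose promoter holds the antioxidant response element shown above, had 201, 216 and 209.9 CPM in the AURKA-guide libraries, against 189, 183 and 217 CPM in the controls. All 3 AURKA-guide values lay above control replicates 1 and 2 and below control replicate 3. Its log2 fold change was 0.093 (SE 0.0619, adjusted p = 0.482). PSMA5, the lowest of the expressed alpha subunits per length, had 69.6, 81.8 and 72.4 CPM with the AURKA guide and 68.5, 71.8 and 74.1 CPM in the controls (0.062, SE 0.0656, adjusted p = 0.679). PSMA7, the highest, had 205, 215 and 205 CPM with the AURKA guide and 210.5, 234 and 198 CPM in the controls (-0.040, SE 0.0591, adjusted p = 0.780). In both the groups overlapped, and control replicate 3 was the highest control for PSMA5 and the lowest for PSMA7.

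The standard beta ring summed to 1343 ± 28.1 FPKM in the AURKA-guide libraries and 1334 ± 41.1 FPKM in the controls (SD, n = 3 each). Its 3 cutting subunits did not pass the test. PSMB5, the chymotrypsin-like subunit that bortezomib binds, had 70.5, 75.9 and 67.9 CPM with the AURKA guide and 74.6, 74.4 and 75.8 CPM in the controls. One AURKA-guide library lay above all controls and the other 2 below them. The log2 fold change was -0.069 (SE 0.0571, adjusted p = 0.577), with an interval from -0.19 to 0.053. PSMB6, the caspase-like subunit, had 105, 102 and 92.8 CPM with the AURKA guide and 104, 110.1 and 96.5 CPM in the controls (-0.052, SE 0.0626, adjusted p = 0.716). PSMB7, the trypsin-like subunit, had 144, 138 and 145 CPM with the AURKA guide and 136, 141 and 124 CPM in the controls (0.091, SE 0.0565, adjusted p = 0.449). The groups overlapped for PSMB6 and for PSMB7, and control replicate 3 was the lowest control in each.

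Among the beta subunits without a cutting site, PSMB4 was the most abundant member per length and had 602, 621 and 588 CPM with the AURKA guide and 601, 625 and 570.4 CPM in the controls. The AURKA-guide values lay inside the span of the controls, and the log2 fold change was 0.012 (SE 0.0470, adjusted p = 0.921). PSMB3 had 122, 125.5 and 124 CPM with the AURKA guide and 131, 144 and 124 CPM in the controls. Its 3 AURKA-guide values spanned little and lay beside control replicate 3, below the other 2 controls (-0.10, SE 0.0576, adjusted p = 0.400). PSMB2, the lowest of the ring per length, had 216, 229.5 and 209.5 CPM with the AURKA guide and 208.5, 211 and 220.3 CPM in the controls, and the groups overlapped (0.033, SE 0.0503, adjusted p = 0.786). PSMB1 had a log2 fold change of 0.10 (adjusted p = 0.441).

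Immunoproteasome subunits, which take the place of the cutting subunits when interferon induces them, were expressed in both groups at levels of the same order as the standard ones. They summed to 216 ± 7.58 FPKM with the AURKA guide and 218 ± 10.6 FPKM in the controls (SD, n = 3 each). PSMB8, which replaces PSMB5, had 104, 108 and 101 CPM in the AURKA-guide libraries, against 105, 111 and 103 CPM in the controls (-0.026, SE 0.0536, adjusted p = 0.844). PSMB9, which replaces PSMB6, had 47.4, 49.5 and 47.2 CPM with the AURKA guide and 50.4, 48.4 and 45.4 CPM in the controls (-0.0018, SE 0.0614, adjusted p = 0.992). For PSMB8 and PSMB9 the groups overlapped, and the signs of these small values turned with other settings. PSMB10, which replaces PSMB7 and whose promoter holds the interferon element shown above, had 82.2, 82.6 and 74.2 CPM with the AURKA guide and 83.5, 87.8 and 74.5 CPM in the controls (-0.040, SE 0.0674, adjusted p = 0.810). One AURKA-guide library and control replicate 3 were both low here, and the groups overlapped.

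The share of the inducible subunit in each cutting pair, on FPKM, describes the balance of the transcripts and not of assembled particles. PSMB8 made up 48.8, 47.2 and 48.1% of PSMB8 plus PSMB5 in the AURKA-guide libraries, against 46.9, 49.5 and 46.7% in the controls. PSMB9 made up 26.8, 28.2 and 29.1% of PSMB9 plus PSMB6 with the AURKA guide, against 28.2, 26.2 and 27.5% in the controls. In both pairs the groups overlapped. PSMB10 made up 36.5, 37.7 and 34.1% of PSMB10 plus PSMB7 with the AURKA guide, against 38.3, 38.5 and 37.8% in the controls. Here every AURKA-guide library lay below every control, by 2.11 points between the means, and the nearest values, AURKA-guide replicate 2 and control replicate 3, were almost equal. With 1 library left out that difference lay between -2.92 and -1.08 points. The shares were formed from member values already seen and carry no test, and neither PSMB10 nor PSMB7 passed its own.

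**Figure D2:**
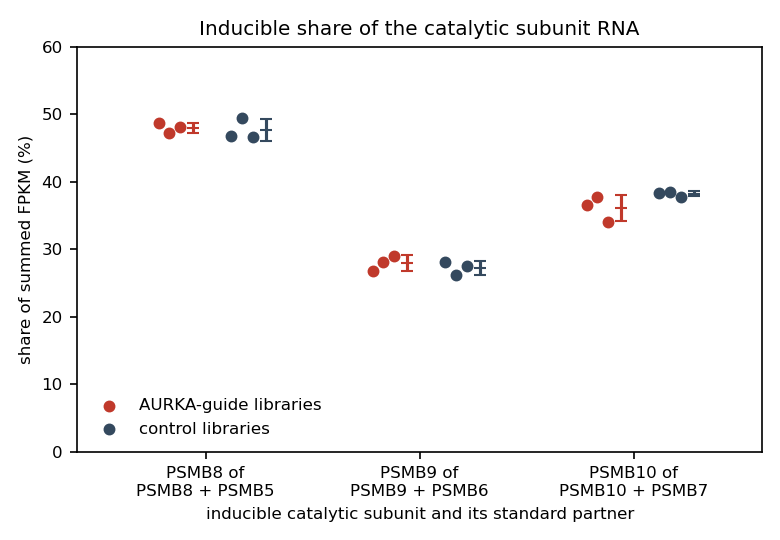
Share of the inducible subunit in each of the 3 cutting pairs, in percent of the pair's summed FPKM, with one point per library; AURKA-guide libraries are drawn left of the controls and the bars beside the points show the group mean ± SD (n = 3). The groups overlap for PSMB8 (means 48.0 and 47.7%) and PSMB9 (28.0 and 27.3%), and the AURKA-guide points lie below the controls for PSMB10 (36.1 and 38.2%).

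The 6 ATPases of the 19S base, the ring that unfolds substrates and threads them into the core, summed to 501 ± 16.6 FPKM with the AURKA guide and 493 ± 4.34 FPKM in the controls (SD, n = 3 each). Of these genes 3 had a log2 fold change above 0 and 3 below. PSMC6 had the smallest p of all members, with 65.9, 66.3 and 65.8 CPM in the AURKA-guide libraries, against 58.5, 53.5 and 64.3 CPM in the controls. All 3 AURKA-guide values lay above all controls and within 1 CPM of each other, while the controls spread widely and control replicate 3 came close to the AURKA-guide libraries. The log2 fold change was 0.17 (SE 0.0662, unadjusted p = 0.0242, adjusted p = 0.234), with an interval from 0.025 to 0.31. PSMC1 had 127, 132 and 135 CPM with the AURKA guide and 123, 112 and 127 CPM in the controls, again without overlap in CPM (0.13, SE 0.0564, adjusted p = 0.290). On FPKM, AURKA-guide replicate 1 and control replicate 3 of PSMC1 were nearly level, at 80.4 and 80.5. PSMC3, the highest ATPase per length, had 182, 199 and 188 CPM with the AURKA guide and 191, 194.5 and 194.5 CPM in the controls, and the groups overlapped (-0.026, SE 0.0492, adjusted p = 0.832).

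The 11 other 19S subunits, which form the scaffold, the ubiquitin receptors and the lid, summed to 1032 ± 25.7 FPKM with the AURKA guide and 1043 ± 4.19 FPKM in the controls (SD, n = 3 each). Their log2 fold changes were above 0 in 6 and below 0 in 5. PSMD1, a large scaffold subunit, had 174, 173 and 176 CPM in the AURKA-guide libraries, against 159.9, 152 and 172 CPM in the controls. Control replicate 3 came within 1 CPM of the lowest AURKA-guide library, and the other controls were lower (0.11, SE 0.0528, adjusted p = 0.322). PSMD14, the deubiquitinase that removes ubiquitin chains at the entrance, had 67.6, 70.8 and 68.1 CPM with the AURKA guide and 62.5, 60.2 and 67.5 CPM in the controls (0.12, SE 0.0591, adjusted p = 0.342). Its lowest AURKA-guide value and control replicate 3 were almost equal. PSMD8, a lid subunit, had 178, 184 and 169.5 CPM with the AURKA guide and 192, 209 and 176 CPM in the controls (-0.12, SE 0.0611, adjusted p = 0.359). The order was turned round here, with control replicate 3 the lowest of the controls and inside the AURKA-guide span. PSMD4, a ubiquitin receptor and the most abundant 19S member per length at 299 FPKM, had 385, 409.8 and 379.5 CPM with the AURKA guide and 390.1, 409.9 and 393 CPM in the controls (-0.023, SE 0.0472, adjusted p = 0.845). PSMD12, a lid subunit and the lowest of this role at 16.4 FPKM, had 69.1, 76.6 and 74.2 CPM with the AURKA guide and 73.3, 66.6 and 79.3 CPM in the controls (0.0032, SE 0.0677, adjusted p = 0.988). Both overlapped throughout.

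The 3 chaperones of the 19S base, which hold ATPase pairs until the ring closes, were the least abundant members and summed to 40.5 ± 0.114 FPKM with the AURKA guide and 39.4 ± 1.42 FPKM in the controls (SD, n = 3 each). PSMD10, also known as gankyrin, had 27.7, 24.2 and 24.2 CPM with the AURKA guide and 23.1, 22.9 and 25.4 CPM in the controls (0.093, SE 0.0780, adjusted p = 0.585). PSMD9 had 21.1, 25.1 and 24.1 CPM with the AURKA guide and 24.5, 27.2 and 24.0 CPM in the controls (-0.11, SE 0.0814, adjusted p = 0.541). Each had 1 AURKA-guide library beyond the others, replicate 1, which was high for PSMD10 and low for PSMD9, and the groups overlapped for both. PSMD5 had a log2 fold change of 0.073 (adjusted p = 0.582).

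Activators open the core without the 19S cap, and PSMF1 was first described as an inhibitor of the core. These 5 genes summed to 552 ± 15.6 FPKM with the AURKA guide and 562 ± 3.35 FPKM in the controls (SD, n = 3 each), with 1 log2 fold change above 0 and 4 below. PSME4, the nuclear activator PA200, had 217, 215 and 217 CPM in the AURKA-guide libraries, against 197, 194 and 216 CPM in the controls. Its AURKA-guide libraries agreed within 2 CPM, control replicate 3 lay among them and the other controls lay below (0.10, SE 0.0514, adjusted p = 0.366). PSME3, the nuclear activator PA28 gamma, had 347, 351 and 351 CPM with the AURKA guide and 369.5, 369 and 361 CPM in the controls. It was the only member whose AURKA-guide values all lay below the controls, by a log2 fold change of -0.068 (SE 0.0429, adjusted p = 0.459). PSME2, a subunit of the interferon-induced activator PA28, had 158, 169 and 154 CPM with the AURKA guide and 163, 163 and 166 CPM in the controls (-0.033, SE 0.0502, adjusted p = 0.787), and its partner PSME1 had a log2 fold change of -0.020 (adjusted p = 0.876). The groups overlapped for both.

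The 5 chaperones that build the 20S core summed to 254.5 ± 8.67 FPKM with the AURKA guide and 265.5 ± 5.30 FPKM in the controls (SD, n = 3 each), a ratio of 0.959. All 5 log2 fold changes were below 0, with a median of -0.050, and none passed the test. PSMG1, which pairs with PSMG2 to template the alpha ring, had 53.9, 60.8 and 58.9 CPM with the AURKA guide and 61.0, 60.4 and 64.8 CPM in the controls (-0.10, SE 0.0619, adjusted p = 0.441). PSMG2 had 62.7, 68.8 and 67.0 CPM with the AURKA guide and 64.1, 63.1 and 72.2 CPM in the controls (-0.0069, SE 0.0648, adjusted p = 0.971). For PSMG1 one AURKA-guide library lay among the controls and 2 below them, whereas PSMG2 overlapped fully. PSMG3, which pairs with PSMG4, had 38.1, 40.0 and 38.3 CPM with the AURKA guide and 38.4, 42.5 and 39.9 CPM in the controls (-0.053, SE 0.0634, adjusted p = 0.716). POMP, which brings the beta subunits onto the alpha ring, had a log2 fold change of -0.034 (adjusted p = 0.815) and PSMG4 one of -0.050 (adjusted p = 0.732).

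**Figure D3:**
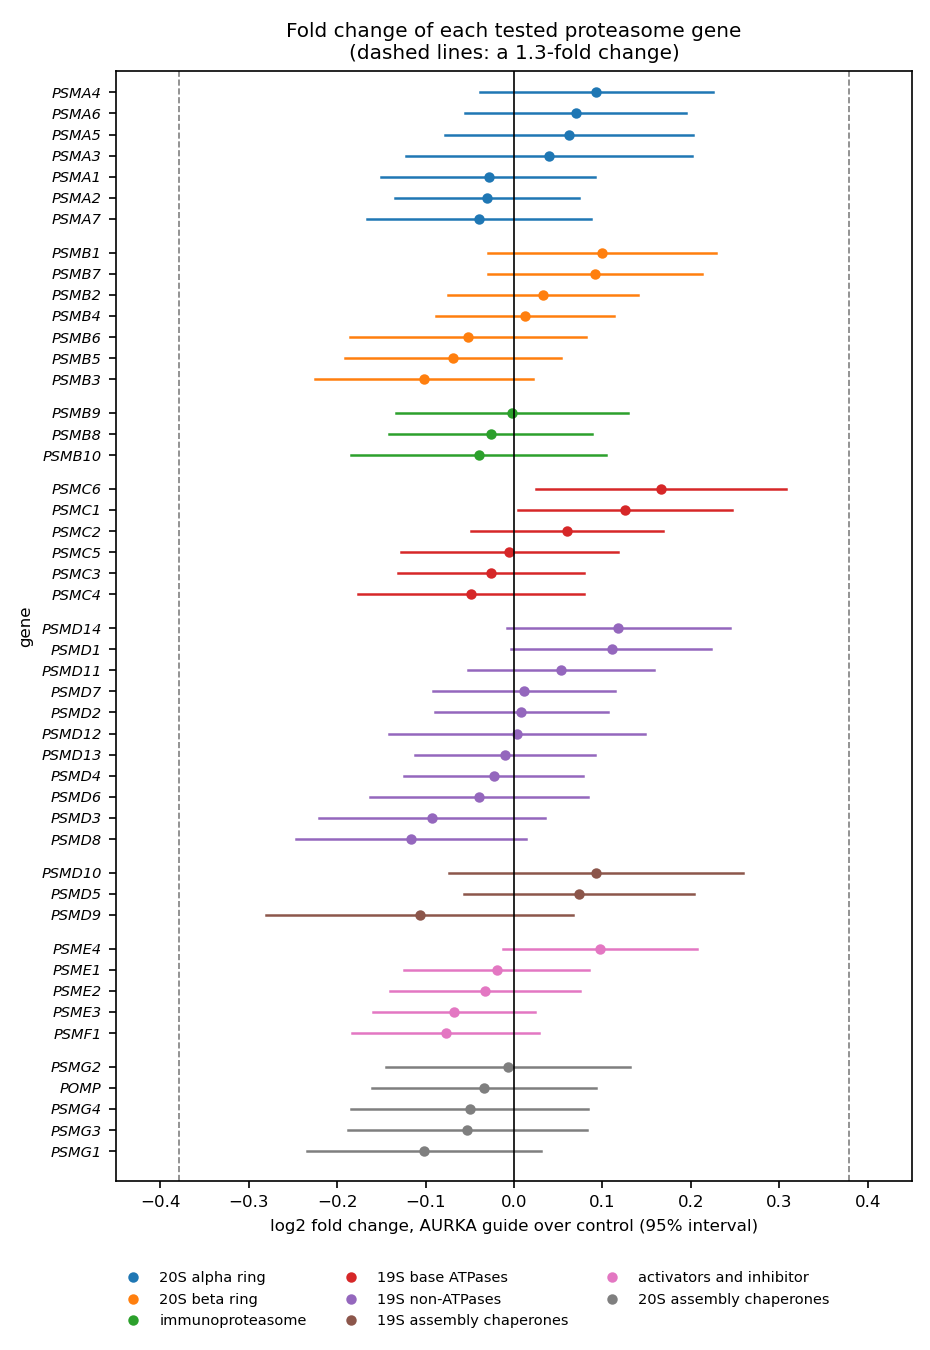
Log2 fold change (AURKA guide over control) of the 47 tested proteasome genes with 95% intervals, grouped by role. No gene passed an adjusted p of 0.05, and all intervals lie within the 1.3-fold change that the dashed lines mark.

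Among the settings tried, members passed the test only where control replicate 3 was left out. Without it 9 of the 47 members (19.1%) passed, beside 15.3% of all 13283 genes tested then. Higher with the AURKA guide were PSMC6 (0.23, adjusted p = 0.00958), PSMA4 (0.17, adjusted p = 0.0173), PSMD14 (0.16), PSMC1 (0.16), PSMD1 (0.16) and PSME4 (0.15). Lower were PSMD8 (-0.18, adjusted p = 0.0194), PSMD3 (-0.15) and PSMB3 (-0.15). Leaving out any of the other 5 libraries gave no call among the members, beside 1.16, 0.76 and 0.738% of all genes without AURKA-guide replicates 1, 2 and 3 and 0.836 and 1.76% without control replicates 1 and 2. Without control replicate 2 the log2 fold change of PSMC6 was 0.11.

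The direction of the members' values moved with the GC content of their transcripts, which ran from 34.6 to 60.1% with a median of 49.1%, against 48.5% over all tested genes. Across the 47 members, which share the 6 libraries, GC content and the log2 fold change had a Pearson r of -0.553 and a Spearman rho of -0.551. GC content and the log2 ratio of control replicate 3 over control replicate 2, where no treatment differs, had r = -0.697 and rho = -0.697 across the same members, and r = -0.485 and rho = -0.645 across 12814 genes. PSMC6, at 36.8% GC, had 0.27 for that ratio between controls, and PSMD8, at 55.0% GC, had -0.25. After a spline correction for GC content in every library, r with the log2 fold change was 0.056. The correction takes out a trend with GC content by design, so this r is not a result about the members. The corrected values were 0.090 for PSMC6 and -0.080 for PSMD8, and no member passed, beside 6.41% of all genes. With the correction and without control replicate 3, 3 of the 47 members passed, beside 6.92% of all genes: PSMC1 (0.15, adjusted p = 0.0294), PSMA2 (-0.14, adjusted p = 0.0232) and PSMF1 (-0.13, adjusted p = 0.0274). With the correction and without control replicate 2 no member passed, beside 4.4% of all genes.

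**Figure D4:**
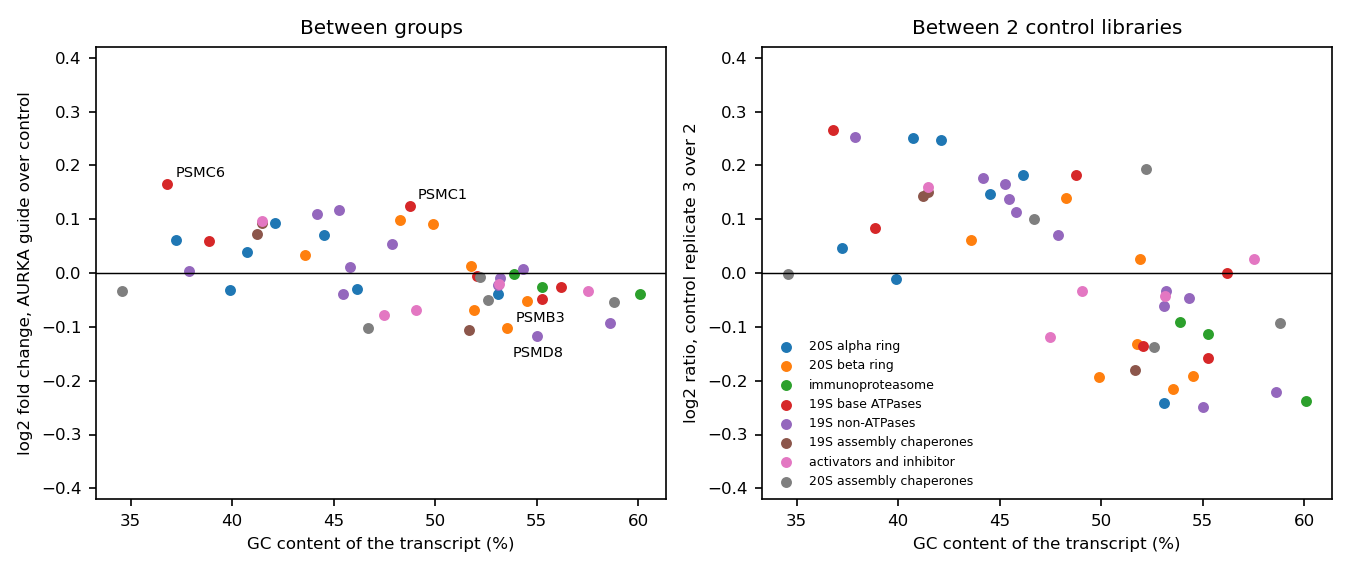
GC content of each tested proteasome gene's transcript in percent, against the log2 fold change of AURKA guide over control (left) and against the log2 ratio of control replicate 3 over control replicate 2 (right), colours marking roles. Both fall as GC content rises, with r = -0.553 on the left and r = -0.697 on the right (n = 47 genes).

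The promoter motifs were set beside the fold changes. Members holding the antioxidant response core had a median log2 fold change of -0.0069, those without it -0.0007. The 4 members whose cores are printed above are the holders that passed without control replicate 3, where 15.3% of all genes passed. Their choice thus rests on these same data. Of these 4 members, PSMA4 (0.093) and PSME4 (0.10) lay above 0 and PSMB3 (-0.10) and PSMD3 (-0.093) below. For the ETS core the medians were 0.0032 with it and -0.013 without, for the interferon element -0.033 and -0.0061, for the gamma-activated sequence -0.058 and 0.0032, and for the CCAAT box -0.016 and -0.0069. These are descriptions over few genes, and a match is not evidence of binding.

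Each gene's counts were also divided among its transcripts by the authors' software, with 128 transcripts deposited for the members. The strandedness of the libraries is not given in the sources used here, so reads of PSMB8 and of an antisense gene at its locus cannot be told apart, and several members have pseudogene copies that could share reads with them. For 36 of the 47 expressed members the leading transcript held at least 80% of the counts. None of the 109 tested member transcripts passed, and the smallest adjusted p was 0.436; over all 43979 tested transcripts 1 passed (0.00227%). Of the 2 transcripts of PSMB8, which differ in their first exon, NM_148919.3 held 74.3, 76.1 and 76.5% of the gene's counts with the AURKA guide, against 75.8, 75.0 and 72.6% in the controls. In PSMC4 most counts, 70.1% with the AURKA guide and 72.5% in the controls, were given to XR_002958336.1, which RefSeq's prefix marks as a non-coding model.

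The groups did not overlap in CPM for 3 of the 109 tested member transcripts on the higher side, beside 6.08% of all tested transcripts, and for 3 on the lower side, beside 5.8%. These 6 belong to PSMC2, PSMC4, PSMD6 and PSMG4, and the one with the smallest p in each of PSMC2 and PSMD6 is given here. NM_001204453.1 of PSMC2 had 0 expected counts in all 3 AURKA-guide libraries, against 24.0, 26.4 and 30.8 in the controls. The control mean was 9.03-fold above an assumed floor of 3 counts per library, which does not bound the change. This transcript held 0.47% of the gene's counts, its adjusted p was 0.436, and an estimate of exactly 0 can come from how reads are shared among transcripts. In the authors' deposited table the same transcript has a q-value of 0.0144 for the AURKA guide, and it is the only one of 127 member transcripts under 0.05 there (0.787%, against 1.55% of all transcripts listed). For an NSD2 guide, compared with Vector by its header, the authors' deposited table lists no member transcript under 0.05, against 1.78% of all. The header does not say whether that Vector is the control libraries used here. XM_005265619.1 of PSMD6 had 61.7, 67.7 and 76.9 expected counts with the AURKA guide, against 132, 128 and 122 in the controls, and its share of the gene was 4.29% and 7.83% (adjusted p = 0.959). The authors' deposited list of 229 changed genes holds none of the members.

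Genes that work with the proteasome were read from 4 further lists. None of the 11 other proteins bound to the proteasome passed, with a median log2 fold change of 0.059. ECPAS, which holds the cap to the core, had 108, 105 and 109.9 CPM with the AURKA guide and 96.2, 91.0 and 97.2 CPM in the controls, without overlap (0.19, SE 0.0516, adjusted p = 0.0906). It passed after the GC correction (0.16, adjusted p = 0.0104), beside 6.41% of all genes, and without control replicate 3, beside 15.3%. ADRM1, a ubiquitin receptor, was at -0.12 (adjusted p = 0.383) and passed without control replicate 3 (-0.19, adjusted p = 0.0162). After the GC correction ADRM1 was at -0.0048 and did not pass (adjusted p = 0.949). AKIRIN2, which carries proteasomes into the nucleus, was at -0.088 (adjusted p = 0.453).

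Of 7 genes that control proteasome transcription none passed, with a median of 0.0093. NFE2L1 had 144, 143.5 and 141 CPM with the AURKA guide and 151, 138 and 137 CPM in the controls, and the groups overlapped (0.0093, SE 0.0523, adjusted p = 0.946). NGLY1, the deglycosylating enzyme that activates NFE2L1, had 86.2, 88.3 and 89.2 CPM with the AURKA guide and 97.9, 90.0 and 106 CPM in the controls (-0.16, SE 0.0614, adjusted p = 0.224). Its AURKA-guide values all lay below the controls. It passed after the GC correction (-0.21, adjusted p = 0.00124), beside 6.41% of all genes, but not without control replicate 3. The small Maf partners stood at -0.19 for MAFK (adjusted p = 0.213) and 0.26 for MAFF (adjusted p = 0.478). MAFK passed without control replicate 3 (-0.24, adjusted p = 0.0298), beside 15.3% of all genes. After the GC correction MAFK was at -0.086 and did not pass (adjusted p = 0.396). None of 15 genes of ubiquitin supply and delivery passed, with a median of -0.0061, and UBA6, a ubiquitin-activating enzyme, was at 0.11 (adjusted p = 0.408).

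The fourth list held 11 genes of interferon-linked antigen processing, with a median of 0.045. TAP1, a peptide transporter subunit whose gene neighbours PSMB9, had 145, 139.7 and 143 CPM with the AURKA guide and 163, 175 and 148 CPM in the controls (-0.18, SE 0.0590, adjusted p = 0.149). IRF1, an interferon-regulated transcription factor, had 32.5, 29.9 and 31.7 CPM with the AURKA guide and 28.1, 26.1 and 26.4 CPM in the controls (0.22, SE 0.0672, adjusted p = 0.119). Neither overlapped between the groups, in opposite directions. Both passed after the GC correction, at -0.13 for TAP1 (adjusted p = 0.0351) and 0.24 for IRF1 (adjusted p = 0.00889), beside 6.41% of all genes. Both also passed without control replicate 3, beside 15.3% of all genes. Beside them PSMB8, PSMB9, PSMB10, PSME1 and PSME2 lay between -0.040 and -0.0018 on the log2 scale.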

How the data were processed

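RNA-seq was made with the BGISEQ-500 protocol from total RNA of LP-1 cells, 3 libraries with a guide against AURKA and 3 with a guide without a target, per the labels' protocols. The submitters' processing notes name RSEM, Bowtie2 and BWA and the hg19 build, without saying in the sources used here what each did or in which version. Per the file headers, the authors' tables hold, for genes and for transcripts, expected counts (RSEM's estimates, reads being split among transcripts) and FPKM, beside TPM, which the authors deposited too and which was not used. Of the gene values 44.8% were not whole, and 13 of the 48 members had any such value. In the authors' deposited comparisons, log2 fold changes, p-values and q-values were only quoted; the sign of their log2 values is AURKA guide over control, read from AURKA itself.

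Rounded expected counts entered edgeR 4.0.16 (R 4.3.3) (filterByExpr, TMM scaling, quasi-likelihood F test, Benjamini-Hochberg adjustment at 0.05 over all 13138 genes). Standard errors come from the F statistic and 95% intervals from them. CPM uses TMM-scaled library sizes and compares groups; FPKM compares genes. GC content came from the longest coding transcript in GENCODE release 29, found for all 48 members. The scripts were tested on simulated data with known changes. Alternatives were a replicate block, each library left out, other filters and scalings, the Wald test of DESeq2 1.42.0, limma-trend (limma 3.58.1) on log2(FPKM + 1) and log2(FPKM + 0.1), and a spline correction for GC content with 5 degrees of freedom; the GC correction without control replicate 2 or 3 was added after seeing the data.

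The members, roles, gene lists and tests were chosen with earlier results of these data known. Members named with values are, for each role, those with the smallest p and with the highest and lowest level, and the cutting and inducible subunits; for each further list, the genes that passed and the 3 with the smallest p, some of which are not reported here. Other genes given with values (NFE2L1, CD38, PSMB1, PSMC1, PSMD3, PSMD5, PSMD8, PSMD14, PSME1, PSME3, PSMG4, POMP, PSMA2, PSMF1) and the minor transcripts were named after their values were seen. Reads carry no molecular identifiers, so a read is not always a separate molecule; intervals rest on the spread between libraries.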

Additional observations from a re-analysis of the deposited data

How the results depend on the processing

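No member passed in the full data, nor under the replicate block (385 genes, 2.93%, passed), without a filter on low counts (1.57%), with genes averaging 10 CPM or more (2.02%), scaling by DESeq2 (1.84%) or by library size alone (2.02%), limma-trend at either pseudocount (1.7 and 1.61%), the GC correction, or that with the block (7.01%). The labels do not say whether the same replicate number in both groups marks a shared batch. For libraries of the same number the correlations of their deviations from the group means were 0.051, -0.11 and 0.095. For unlike numbers they ran from -0.206 to 0.166. With 3 libraries per group the deviations depend on each other, so these values cannot decide whether the libraries were paired. With 1 library left out, 0 to 9 members passed, all 9 without control replicate 3, and 3 passed with the GC correction and without control replicate 3. Of all genes 267 passed (126 higher, 141 lower), and 98 to 2034 did with 1 library left out (53 to 905 higher, 45 to 1129 lower). The number was 822 with the GC correction (407 higher, 415 lower), 898 with the replicate block added (434 and 464), 571 without control replicate 2 (299 and 272) and 896 without control replicate 3 (425 and 471). At a mean of at least 10 CPM 90 genes were lower. The 1 transcript that passed was lost with the replicate block, leaving 0, and 0 to 0 passed with 1 library left out. The summed FPKM ratio lay between 0.9985 and 1.03 for the ATPases, 0.9762 and 0.9983 for the other 19S subunits and 0.9665 and 0.9916 for the activators with 1 library left out. On CPM the mean inducible shares were 59.4% with the AURKA guide and 58.6% in the controls for PSMB8 and 32.5 and 31.8% for PSMB9; on FPKM with 1 library left out they were 47.7 to 48.4% and 46.8 to 48.2% for PSMB8, and 27.5 to 28.6% and 26.8 to 27.8% for PSMB9. The PSMB10 difference lay between -2.92 and -1.08 points.

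Signs turned for 14 of the members named by rule and for ADRM1, none of which passed in the full data, and the cause was not tested; ADRM1 passed without control replicate 3. Log2 fold changes with 1 library left out were -0.0096 to 0.11 for PSMA5, -0.096 to 0.031 for PSMA7, -0.11 to 0.015 for PSMB10, -0.0052 to 0.061 for PSMB2, -0.024 to 0.046 for PSMB4, -0.054 to 0.0082 for PSMB8, -0.044 to 0.032 for PSMB9, -0.062 to 0.0021 for PSMC3, -0.057 to 0.063 for PSMD12, -0.057 to 0.0010 for PSMD4 and -0.041 to 0.054 for PSMG2. With the GC correction alone, with the block added, without control replicate 2 and without control replicate 3, in this order, they were 0.037, 0.037, 0.048 and 0.018 for PSMB10, 0.011, 0.011, 0.026 and 0.011 for PSMB8, 0.025, 0.025, 0.018 and 0.0024 for PSMB9, 0.018, 0.018, 0.0010 and 0.052 for PSMC3, -0.068, -0.068, -0.086 and -0.061 for PSMD12, and 0.012, 0.012, 0.017 and 0.047 for PSMG3. With the correction alone, with the block added and without control replicate 3 they were -0.014, -0.018 and -0.044 for PSMA5, -0.0082, -0.0095 and -0.012 for PSMB2, 0.021, 0.021 and 0.066 for PSME2, and 0.0058, 0.0067 and 0.081 for PSMG2. With it and without control replicate 2 they were 0.041 for PSMA7, 0.011 for PSMB6, 0.011 for PSMD4 and 0.0098 for ADRM1, and without control replicate 3 -0.0028 for PSMB4 and 0.0032 for PSMD4. PSMB9 was at 0.0035 with library size alone and at 0.0047 and 0.0048 with limma-trend.

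The tested members had at least 386 expected counts in each library. Changes of protein, assembly or activity were not measured.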
